A study of Homo sapiens with 66 samples.

Results

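The comparison described here follows gene and intron RNA in hnRNPC-targeted cells between day 3 and day 5 after nucleofection. Its members were taken from the sample labels: 3 libraries of day 3 and 3 libraries of day 5, which are 6 of the 66 samples of the series. The cells were THP-1, a human monocytic leukemia line, as a STING-deficient clone with a Cas9 transgene. STING is an adaptor protein that signals from cytosolic DNA, and its loss is shared by all groups named here, as is the nucleofection of a guide RNA (gRNA) on day 0. The hnRNPC group received a gRNA against HNRNPC together with a nontarget gRNA. The same comparison of days was made in CTRL cells, which received nontarget gRNA in place of both. It was also made in GFP-targeted cells, which received a gRNA against GFP and a nontarget gRNA. ADAR+hnRNPC-targeted cells, which received gRNAs against both genes, were compared in the same way. Each of these groups had 3 replicates per day, and hnRNPC-targeted cells of day 4 were used as the time point in between. CTRL cells of day 4, with and without 24 h of IFN-α treatment, served to choose sets of genes and introns, also with 3 replicates each. The targeted cells were a mixed population and not clones from single cells, so that fewer cells with a transcript and less transcript per cell cannot be told apart in these bulk libraries. The question was what goes on changing in these cells after hnRNPC has been targeted.

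HnRNPC is an abundant nuclear protein that binds runs of uridines in newly made RNA. At such runs it competes with U2AF65, the splicing factor that recognizes the polypyrimidine tract before a 3′ splice site, and in this way it keeps cryptic exons in introns, many of them in antisense Alu elements, out of messenger RNA. Inverted Alu repeats in retained or unspliced RNA can fold into double-stranded RNA (dsRNA). The sensor MDA5 responds to long dsRNA and induces type I interferon, which in turn drives interferon-stimulated genes (ISGs). ADAR edits adenosine to inosine in such structures.

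The gRNA is shown because its place defines what was cut. Its 20 bases are in lower case and the adjacent PAM, the motif Cas9 needs beside its target, is in capitals.

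hnRNPC gRNA: gagattcccaatgaatacacGGG

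In GRCh37 this sequence lies at chr14:21702284-21702303 on the plus strand, in coding exon sequence of HNRNPC, which is transcribed from the minus strand. This is exon 3 of the principal transcript. The same bases with the same PAM also occur at chr2:190788111-190788130, in the pseudogene HNRNPCP2 within C2orf88, so a cut there is possible and was not measured.

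Gene counts per library were 129889837 to 136294489 on day 3 and 135484351 to 150427487 on day 5, compared with 110217841 to 119814283 and 125328747 to 149998927 in CTRL cells. The 10 most abundant genes took up 10.5 to 13% of gene counts on day 3, 16.4 to 17.3% on day 5, and 10.6 to 11.3% in CTRL cells on day 5. Among them was RN7SK, the small nuclear RNA that holds the elongation kinase P-TEFb inactive, at 25730, 31044, and 33316 CPM (counts scaled to library size) on day 3 and 53761, 54342, and 54442 CPM on day 5. RN7SK was named after its values were seen. In a principal component analysis of the 9 libraries of hnRNPC-targeted cells, the first component held 60.5% of the variance and put the days in order. Replicate 3 of day 3 stood apart from replicates 1 and 2 in introns. Relative to the mean of day 3, the median log2 level over all tested introns was 0.11, 0.11, and −0.22 in these libraries and −0.20, −0.16, and −0.15 on day 5. Of 10 monocyte markers, 8 passed the filter on low counts, and their 10 levels together summed to 635 to 756 CPM on day 3 and 461 to 554 CPM on day 5, compared with 649 to 771 and 435 to 466 CPM in CTRL cells. The lower sum does not mean that all markers decreased. LYZ, described below, changed by −1.64 on the log2 scale, ITGAM was higher on day 5, and the median change of the 8 was 0.03. T cell, erythroid, and epithelial markers summed to less than 1 CPM in every library of these groups, with HBA2 and HBB at 0.

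HNRNPC RNA was already low on day 3 and moved little afterward. Its levels were 356, 374, and 381 CPM on day 3, 336, 343, and 355 CPM on day 4, and 312, 323, and 315 CPM on day 5. CTRL cells had 770, 778, and 815 CPM on day 3 and 811, 869, and 818 CPM on day 5. No library of hnRNPC-targeted cells reached a CTRL library. ADAR+hnRNPC-targeted cells had 318 to 417 CPM, and GFP-targeted and IFN-α–treated CTRL cells 739 to 862 CPM, so these libraries matched their labels as to HNRNPC. ADAR is itself induced by IFN-α, with 1053 to 1373 CPM in treated CTRL cells, and its 1165 to 1509 CPM in ADAR+hnRNPC-targeted cells on day 5 do not check that label. The change from day 3 to day 5 was −0.23 ± 0.06 (log2 fold change ± SE, n = 3 per day) in edgeR's quasi-likelihood test (Benjamini-Hochberg adjusted p = 0.00123), under the 2-fold threshold that was set for a call. In all comparisons, a gene or intron was called if its log2 fold change was 1 or more in either direction with an adjusted p up to 0.05, and "rose" and "fell" refer to called features. RNA levels do not show the hnRNPC protein, since a frameshifted transcript can still be counted.

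The study ran qPCR assays for IARS2, NUCKS1, MFSD1, and EIF3D, and all of them had lower levels on day 5 than on day 3. The study describes the genes it assayed for Alu inclusions as reduced after hnRNPC targeting in its RNA-seq, the data used here. Their decrease is therefore not independent of how they were chosen. IARS2, the mitochondrial isoleucyl-tRNA synthetase, had 184, 193, and 198 CPM on day 3, 118, 133, and 129 CPM on day 4, and 86.6, 89.8, and 92.6 CPM on day 5. It fell by 1.10 ± 0.06 on the log2 scale (edgeR adjusted p = 1.82e-16), while CTRL cells held 390 to 450 CPM on both days. NUCKS1, a chromatin-associated DNA-binding protein, had 713, 773, and 780 CPM on day 3 and 376, 431, and 451 CPM on day 5 (−0.85 ± 0.08). EIF3D, the cap-binding subunit of translation initiation factor 3, had 193, 200, and 201 CPM on day 3 and 115, 115, and 110 CPM on day 5 (−0.81 ± 0.05). MFSD1, a lysosomal transporter, went from 278, 289, and 285 to 180, 187, and 174 CPM (−0.65 ± 0.05). For these genes the days did not overlap, and only IARS2 was past the fold needed for a call. Days did not overlap, in either direction, for 7957 of all 13193 tested genes, which is the background for such statements on genes below.

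**Figure D1:**
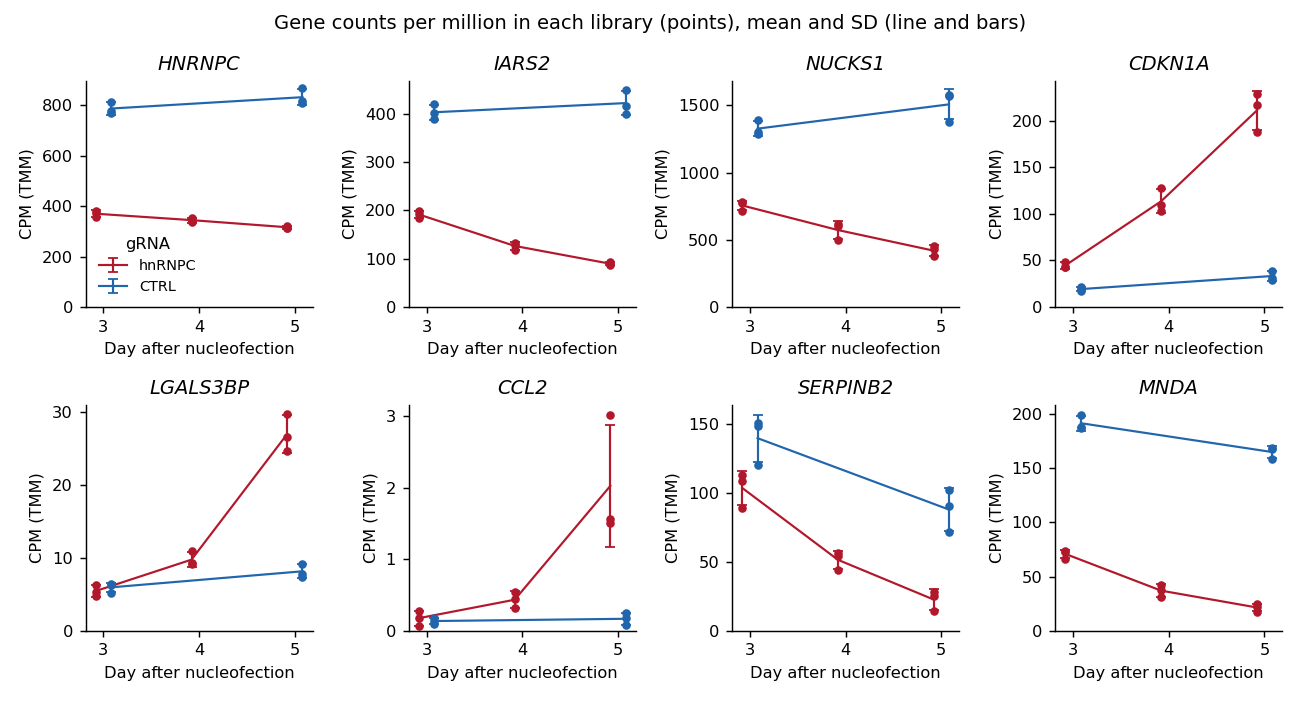
Levels of 8 genes in CPM on a linear axis against the day after nucleofection, for hnRNPC-targeted and CTRL cells. Each library is a point, and the means of each group are joined by lines with SD bars. HNRNPC stays at 312 to 381 CPM in hnRNPC-targeted cells on all days, IARS2 and NUCKS1 continue to decrease, and CDKN1A reaches 188 to 228 CPM on day 5.

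Between day 3 and day 5, 330 genes rose and 143 fell among 13193 tested genes (2.5 and 1.08%). The median over all genes was −0.02, and 3367 genes with a positive and 3704 with a negative change passed the adjusted p without regard to the fold. From day 3 to day 4, 27 genes rose and 11 fell (0.205 and 0.0834%), and from day 4 to day 5, 63 rose and 6 fell (0.478 and 0.0455%). These step counts depended on single libraries. To day 4, 46 genes rose without replicate 3 of day 3 and 13 without replicate 3 of day 4, and from day 4 to day 5, 107 rose without replicate 3 of day 4 and 97 without replicate 2 of day 5. From day 4 to day 5, 14 and 12 fell without these libraries and 3 without replicate 2 of day 4. Of the 330 genes that rose over both days, 329 had a mean on day 4 between those of day 3 and day 5, as did 141 of the 143 that fell and 59.6% of all tested genes. The genes that rose had a median step of 0.54 to day 4 and of 0.78 from day 4 to day 5, and those that fell had steps of −0.69 and −0.55.

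Fewer genes were called over the same days in cells without an hnRNPC gRNA. In CTRL cells 59 genes rose and 29 fell from day 3 to day 5 (0.447 and 0.22%), and in GFP-targeted cells 64 rose and 33 fell (0.485 and 0.25%). Of the 330 genes that rose in hnRNPC-targeted cells, 25 also rose in CTRL cells (7.58% of the 330 and 42.4% of the 59) and 4 fell there, CYP1B1, ZNF366, IL21R, and GPX1P1, and 34 also rose in GFP-targeted cells. Of the 143 that fell, 12 also fell in CTRL and 17 in GFP-targeted cells. In ADAR+hnRNPC-targeted cells, whose libraries are separate from those of the hnRNPC group, 911 genes rose and 386 fell (6.91 and 2.93%). These include 181 of the 330 genes (54.8% of the 330 and 19.9% of the 911), and 320 of the 330 had a positive change. Of the 143 genes, 51 fell there too (35.7% of the 143 and 13.2% of the 386) and 6 rose.

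**Figure D2:**
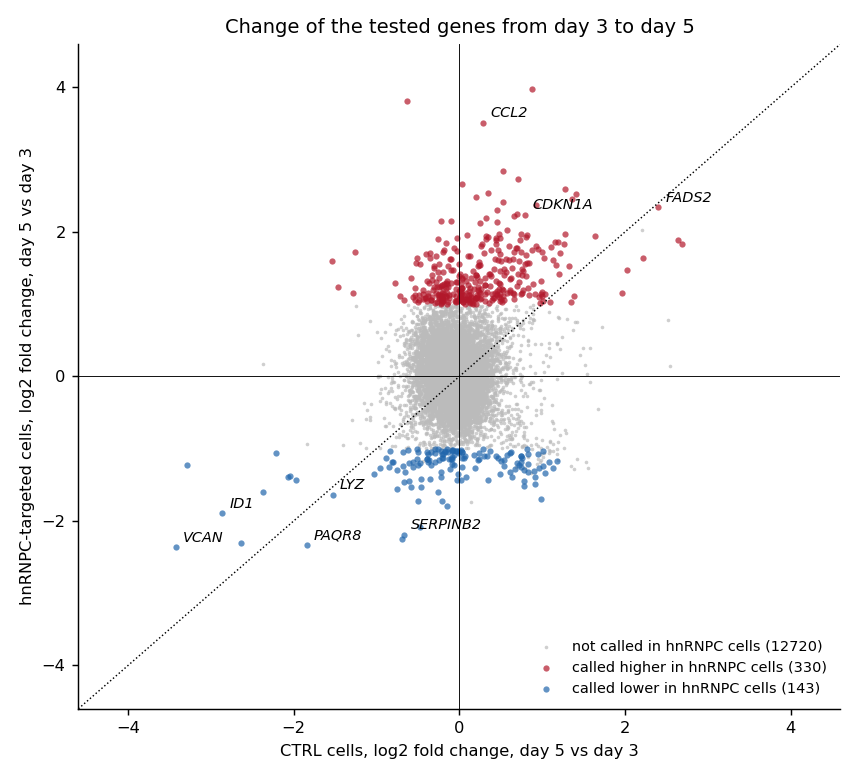
Log2 fold change from day 3 to day 5 in hnRNPC-targeted cells (vertical) against CTRL cells (horizontal) for 13193 genes, with called genes of the hnRNPC comparison in color and 1 point outside the axes. CDKN1A and LGALS3BP lie high on the vertical axis near 0.79 and 0.45 on the horizontal, while FADS2, PAQR8, and ID1 move in the same direction in both groups.

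CDKN1A, PHLDA3, and BTG2 were higher in every library of day 5 than in any of day 3. For CDKN1A and PHLDA3, this was part of a rule by which they were named. CDKN1A encodes p21, an inhibitor of cyclin-dependent kinases and a classical p53 target. Its levels were 43.1, 42.5, and 48.8 CPM on day 3, 103, 110, and 128 CPM on day 4, and 228, 188, and 216 CPM on day 5. It rose by 2.23 ± 0.20 (adjusted p = 2.26e-11), compared with 0.79 ± 0.20 in CTRL cells, where day 5 held 29.4 to 39.0 CPM. PHLDA3, a p53-induced inhibitor of AKT signaling, had 2.18, 1.63, and 1.72 CPM on day 3 and 9.85, 6.86, and 7.84 CPM on day 5 (2.15 ± 0.18), and was at −0.10 in CTRL cells. Of 10 tested CDK inhibitors and growth arrest genes, 3 rose and none fell (2.5 and 1.08% of all genes), with a median of 0.65. The other members that rose were BTG2, an antiproliferative p53 target (14.4, 15.1, and 15.6 to 51.4, 43.3, and 51.0 CPM, 1.69 ± 0.16), and TP53INP1 (1.10 ± 0.19), which was at 0.96 ± 0.19 in CTRL cells. Of 24 tested apoptosis regulators, 3 rose and none fell (median 0.21). BBC3, which encodes the BH3-only protein PUMA, had 4.19 CPM in each library of day 3 and 12.7, 10.3, and 12.3 CPM on day 5 (1.49 ± 0.18). BMF, another BH3-only protein, rose by 1.42 ± 0.14, and TNFRSF10B, a death receptor for TRAIL, by 1.14 ± 0.12. Each of these 3 had its highest day 3 library below its lowest day 5 library. Among 33 genes of DNA replication and 28 of mitosis none was called, with medians of −0.16 and −0.24, and 17 and 16 of them had a negative change that passed the adjusted p.

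Other large increases were in receptors, ligands, and transport. SLC2A6, a hexose transporter, had 2.96, 2.39, and 2.78 CPM on day 3 and 18.9, 12, and 16.5 CPM on day 5 (2.54 ± 0.21, adjusted p = 2.2e-12). F2RL3, the thrombin receptor PAR4, went from 1.21, 1.54, and 1.85 to 7.81, 6.43, and 11.3 CPM (2.48 ± 0.23). DLL4, a Notch ligand, went from 4.25, 4.46, and 4.58 to 21.1, 17.9, and 19.1 CPM (2.13 ± 0.14). All 3 had changes of 0.20 to 0.35 in CTRL cells, and days without overlap were part of the rule by which they were named. SNAI1, a transcription factor of epithelial-mesenchymal transition, rose by 2.20 ± 0.19, and SIGLEC1, a sialic acid receptor of macrophages, by 2.22 ± 0.23. GP9, a platelet glycoprotein, rose by 1.97 ± 0.24, and STYXL2, a pseudophosphatase, by 2.02 ± 0.14. RN7SL396P had the largest fold among genes above 5 CPM in 1 of the groups, at 0.375, 0.598, and 0.781 CPM on day 3 and 2.93, 7.63, and 14.1 CPM on day 5 (3.81 ± 0.77). It is a pseudogene of 7SL RNA with near-identical copies, so reads of other copies may be counted on it and its value is uncertain.

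Of 37 tested ISGs, 16 rose, 21 were not called, and none fell (2.5% of all genes rose), with a median of 0.83. The filter on low counts used the mean over all 48 libraries, which include IFN-α–treated and ADAR+hnRNPC-targeted cells. ISGs and other IFN-α–induced genes that are low in hnRNPC-targeted cells could pass it through those libraries. The share over all genes is therefore not a like background for them. In CTRL cells 4 of the 37 rose (0.447% of all genes, median 0.37), and in ADAR+hnRNPC-targeted cells 36 (median 6.23). IFIT1, a protein that binds 5′ ends of foreign RNA, had 0.195, 0.242, and 0.464 CPM on day 3 and 1.81, 1.06, and 2.56 CPM on day 5 (2.60 ± 0.41, adjusted p = 2.18e-06). The same gene was at 0.586, 0.602, and 0.993 CPM in CTRL cells on day 5 (1.28 ± 0.49). IFI44 went from 0.152, 0.171, and 0.309 to 1.10, 0.998, and 1.37 CPM (2.46 ± 0.31). LGALS3BP, a secreted glycoprotein that binds galectins, had the clearest separation, with 5.30, 4.76, and 6.35 CPM on day 3, 9.11, 9.28, and 10.9 CPM on day 4, and 29.8, 24.7, and 26.6 CPM on day 5 (2.31 ± 0.16, adjusted p = 2.22e-14). IFI44L had under 0.2 CPM on day 3 and 0.776, 0.626, and 1.44 CPM on day 5 (3.98 ± 0.58). The other ISGs that rose were IFIT3, IFIT2, OASL, OAS1, OAS3, MX1, ISG20, IRF7, EPSTI1, IFIT5, OAS2, and IFI27, by 1.05 to 1.8. The number of ISGs that rose was 14 to 17 when a single library was left out. IFN-α treatment of CTRL cells for 24 h raised 159 genes on day 4 (1.21%), in libraries that are not part of the comparison of days. Of these 159 genes, 43 rose and 3 fell in hnRNPC-targeted cells from day 3 to day 5 (median 0.35), and 6 rose and 1, ZNF366, fell in CTRL cells (median 0.14). The 3 that fell, named after their values were seen, were NRIR, a long noncoding RNA, TRIM14, and MT2A, a metallothionein. TRIM14 had 81.5, 79.9, and 72.7 CPM on day 3 and 36.0, 37.7, and 32.6 CPM on day 5 (−1.14 ± 0.11), and the days did not overlap. None of the 10 tested dsRNA sensors and effectors was called (median 0.24), with 5 positive changes that passed the adjusted p.

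Of 10 tested chemokines and cytokines, 4 rose (2.5% of all genes, median 0.55), and none was called in CTRL cells, where 0.447% of all genes rose. As for ISGs, members of the lists in this paragraph that are low in hnRNPC-targeted cells could pass the filter through other libraries. CCL2, a chemokine that recruits monocytes, had 0.281, 0.0712, and 0.178 CPM on day 3 and 1.56, 1.51, and 3.01 CPM on day 5 (3.51 ± 0.38, adjusted p = 9.09e-10). CSF1, the growth factor of macrophages, had 1.05, 0.926, and 1.42 CPM and then 4.73, 3.73, and 4.28 CPM (1.91 ± 0.20). IL1B rose by 1.62 ± 0.31 and IL1RN, the antagonist of the IL-1 receptor, by 1.24 ± 0.18. Among 15 tested genes of NF-κB feedback, 4 rose (median 0.60). ICAM1, an adhesion molecule, went from 0.310, 0.392, and 0.511 to 2.58, 2.13, and 3.38 CPM (2.74 ± 0.28). The others were TNFAIP3, the inhibitor A20 (1.12 ± 0.15, compared with 0.99 ± 0.15 in CTRL cells), and the subunits NFKB2 and RELB (1.05 ± 0.11 and 1.01 ± 0.17), and without a single library 2 to 4 of the 15 were called. Of 18 immediate early genes, 6 rose (median 0.57): KLF2, FOSB, JUN, JUND, JUNB, and IER5. JUN, a subunit of AP-1, had 3.99, 3.99, and 4.79 CPM on day 3 and 15.3, 12.9, and 20.1 CPM on day 5 (1.92 ± 0.30). KLF2 rose by 2.52 ± 0.46 but also by 1.41 ± 0.47 in CTRL cells.

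Some genes of the stress response and of lipid synthesis rose in both hnRNPC-targeted and CTRL cells. Of all tested genes, 2.5% rose in hnRNPC-targeted and 0.447% in CTRL cells. Of 25 tested genes of the integrated stress response, 5 rose (median 0.29), compared with 3 in CTRL cells (median 0.35). ATF3, a stress-induced transcription factor, had 2.5, 2.03, and 2.79 CPM on day 3 and 8.12, 7.71, and 8.70 CPM on day 5 (1.75 ± 0.24). DDIT4, an inhibitor of mTORC1, rose by 1.84 ± 0.41, NUPR1 by 1.75 ± 0.45, and INHBE by 1.64 ± 0.45. In CTRL cells on day 5, DDIT4 had 3.77, 3.51, and 13.7 CPM and INHBE 1.35, 1.07, and 7.86 CPM, so replicate 3 was high there for both genes. Of 24 genes of cholesterol synthesis, 4 rose (median 0.41), whereas 14 rose in CTRL cells (median 1.06). INSIG1, a sterol-regulated retention protein, went from 91.2, 80.5, and 114 to 203, 210, and 219 CPM (1.15 ± 0.19) and in CTRL cells to 346, 405, and 471 CPM (1.96 ± 0.20). SREBF1, the transcription factor of fatty acid synthesis, rose more in hnRNPC-targeted cells, from 35.6, 33.0, and 43.4 to 163, 128, and 148 CPM (1.97 ± 0.15, compared with 1.27 ± 0.15). LSS, lanosterol synthase, rose by 1.03 ± 0.18 and was not called when any of 3 of the 6 libraries was left out. FADS2, the delta-6 fatty acid desaturase, rose by 2.34 ± 0.25 in hnRNPC-targeted and by 2.40 ± 0.25 in CTRL cells, and the difference between these changes was −0.06 ± 0.34.

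MNDA, PLAC8, and SERPINB2 were among the largest decreases. MNDA, a nuclear antigen of myeloid cells, had 66.2, 73.2, and 73.1 CPM on day 3, 30.8, 38.1, and 42.2 CPM on day 4, and 17.5, 22.4, and 24.5 CPM on day 5. It fell by 1.72 ± 0.14 (adjusted p = 2.2e-12), and CTRL cells had 187, 188, and 199 CPM and then 158, 167, and 169 CPM. PLAC8 went from 323, 327, and 331 to 96.4, 104, and 96.4 CPM (−1.72 ± 0.07). SERPINB2, the plasminogen activator inhibitor PAI-2, went from 109, 113, and 89.5 to 25.5, 28.3, and 14.4 CPM (−2.19 ± 0.27). LYZ, lysozyme, fell by 1.64 ± 0.18 from 437, 420, and 308 to 142, 137, and 95.3 CPM, and CTRL cells changed by −1.53 ± 0.18. Of 30 tested genes of myeloid identity, 2 rose and 3 fell (2.5 and 1.08% of all genes, median of the list 0.06). ITGAM, which encodes CD11b, rose by 1.10 ± 0.10, from 16.1, 14.8, and 15.3 to 37.3, 30.7, and 31.2 CPM. CCR2, the receptor for CCL2, fell from 299.7, 310, and 302 to 144, 151, and 139 CPM (−1.07 ± 0.05). VCAN, a matrix proteoglycan, fell by 2.36 ± 0.32 and by 3.42 ± 0.34 in CTRL cells. The list therefore held changes in both directions.

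PAQR8, a membrane progesterone receptor, had the largest decrease among called genes above 5 CPM in 1 of the groups whose days did not overlap, from 106, 120, and 113 to 24.3, 24.7, and 18.6 CPM (−2.33 ± 0.15), next to −1.84 ± 0.14 in CTRL cells. ID1, an inhibitor of basic helix-loop-helix factors, PALD1, and CD1D, which presents lipid antigens, fell in both groups, by 1.89, 1.44, and 1.39 in hnRNPC-targeted and by 2.87, 1.98, and 2.07 in CTRL cells. PKP2, a desmosomal plaque protein, BEX1, CSGALNACT1, an enzyme of chondroitin sulfate synthesis, and UGT3A2, a UDP-glycosyltransferase, fell by 1.41 to 1.53, and none was called in CTRL cells. GLO1, the glyoxalase that detoxifies methylglyoxal, was chosen after its values were seen. It had 1406, 1535, and 1674 CPM on day 3 and 559, 604, and 648 CPM on day 5 (−1.35 ± 0.12), with −0.02 ± 0.11 in CTRL cells.

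Lists of housekeeping functions had few calls, next to 2.5 and 1.08% of all genes that rose and fell. None was called among 81 cytosolic ribosomal proteins and 79 subunits of oxidative phosphorylation (median −0.26 in both), 19 splice-site factors (−0.15), 12 SR proteins (−0.15), 14 factors of nonsense-mediated decay, 12 snoRNA host genes, 30 proteasome subunits, 29 lysosomal genes, 13 subunits of translation initiation factor 3, and 10 class I and 3 class II HLA presentation genes. For ribosomal proteins, 46 negative and 3 positive changes passed the adjusted p, and for oxidative phosphorylation 48 and 6. Of the splice-site factors 10 and of the SR proteins 7 had a negative change that passed it. IARS2 was the only one of 36 aminoacyl-tRNA synthetases that was called, and CALR, the chaperone calreticulin, the only one of 20 endoplasmic reticulum chaperones and genes of the unfolded protein response (−1.01 ± 0.09, and −0.93 without replicate 3 of day 3). Of 25 histone genes H1-6 rose and H2BC26 fell, of 207 zinc finger genes on chromosome 19 ZNF296 rose, of 19 genes of hypoxia and glycolysis PFKFB4 rose, and of 15 mitochondrially encoded genes MT-ATP8 fell. These 5 calls lay near the 2-fold threshold and depended on single libraries. MT-ATP8 was not called when any of 4 of the 6 libraries was left out, H2BC26, ZNF296, and PFKFB4 for any of 2, and H1-6 for 1. CD79B, a subunit of the B cell receptor, rose by 1.23 ± 0.14, and the 5 B cell markers summed to 8.66 to 9.16 CPM on day 3 and 13.7 to 15.5 CPM on day 5, with MS4A1 at 0 on day 3. The part of other cells in this was not tested.

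The change between days was then compared directly between hnRNPC-targeted and CTRL cells. The difference of the changes was past the thresholds for 471 genes in the positive and 249 in the negative direction (3.57 and 1.89%). With GFP-targeted cells in place of CTRL cells, these were 217 and 121 (1.64 and 0.917%). IL21R, a cytokine receptor, rose from 5.85, 6.33, and 6.88 to 14.1, 12.6, and 15.5 CPM in hnRNPC-targeted cells and fell from 3.63, 3.29, and 4.83 to 1.38, 1.35, and 2.07 CPM in CTRL cells, a difference of 2.44 ± 0.25 (adjusted p = 1.91e-09). F2RL3 differed by 2.28 ± 0.33. CYP1B1, a cytochrome P450, differed by 2.99 ± 0.55, with 17.1, 18.5, and 83.6 CPM on day 5. Without replicate 3 of day 5, its change in hnRNPC-targeted cells was 0.57 instead of 1.73 and was not called. TBC1D30, a protein with a Rab GTPase-activating domain, stayed at 1.29 to 1.93 CPM in hnRNPC-targeted cells and rose by 2.54 ± 0.71 in CTRL cells, and the difference of −2.39 ± 0.99 (adjusted p = 0.0449) was not called when any of 10 of the 12 libraries was left out. For IFN-α–induced genes and ISGs the difference was smaller than the change itself, with 6 of 37 ISGs past the thresholds (median 0.30). CDKN1A differed by 1.44 ± 0.28, MNDA by −1.51 ± 0.20, GLO1 by −1.33 ± 0.16, and HNRNPC by −0.31 ± 0.08.

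Several of the most negative differences were in small RNA copies and processed pseudogenes, RNU2-48P, RNU2-64P, EEF1A1P38, and RPS3AP20, at −2.27 to −2.71. Reads of near-identical genes can be assigned to such copies, and their values are uncertain. The groups of these genes had wide spreads. RNU2-48P, a copy of U2 small nuclear RNA, had 11, 7.94, and 9.72 CPM on day 3, 14.1, 10.3, and 1.77 CPM on day 4, and 2.95, 3.82, and 5.83 CPM on day 5, and CTRL cells had 2.58, 7.46, and 1.00 CPM on day 3. Of 265 tested processed pseudogenes, 1 rose and 34 fell in hnRNPC-targeted cells (12.8%, compared with 1.08% of all genes), with a median of −0.58, and the median was 0.41 in CTRL and 0.25 in GFP-targeted cells. Their summed level was 1640, 1421, and 1816 CPM on day 3 and 1175, 1221, and 1310 CPM on day 5, and in CTRL cells 1329, 1545, and 1025 CPM and then 1567, 1556, and 1958 CPM. The 1 that rose was GPX1P1, a pseudogene of glutathione peroxidase 1, from 17.2, 19.5, and 24.2 to 86.9, 43.3, and 53.8 CPM (1.60 ± 0.35), and its difference from CTRL cells was 3.13 ± 0.50. For the difference from CTRL cells, 6 of the 265 were past the thresholds in the positive and 117 in the negative direction. These are 2.26 and 44.2%, compared with 3.57 and 1.89% of all genes. Processed pseudogenes were thus 117 of the 249 genes with a negative difference.

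On the library size of genes, more introns fell than rose by day 5, but this order depended on the library size used. Total intron counts per library overlapped between the days, with 27783095 to 35684715 on day 3 and 32871670 to 35109665 on day 5. Among 21798 tested introns, 125 rose and 270 fell (0.573 and 1.24%), and the median was −0.21 on the library size of genes. The count of introns that fell depended on the libraries of day 3. It was 640 without replicate 3, 172 without replicate 1, and 177 without replicate 2. When the library size was taken from introns themselves, 183 introns rose and 161 fell, and the median was −0.10. In CTRL cells, 52 introns rose and 16 fell (0.239 and 0.0734%, median −0.01), and in ADAR+hnRNPC-targeted cells 663 rose and 1309 fell (3.04 and 6.01%, median −0.28). The ADAR+hnRNPC libraries called 48 of the 125 (38.4% of the 125 and 7.24% of the 663) and 130 of the 270 (48.1% of the 270 and 9.93% of the 1309) in the same direction. From day 3 to day 4, 4 introns rose, in ATF3, FADS2, IRAG2, and CDKN1A, and 4 fell, in PALD1 (2 introns), SERPINB2, and SLC8A1 (0.0184% each), and from day 4 to day 5, 15 rose and 8 fell (0.0688 and 0.0367%). Without single libraries, 1 to 6 rose and 1 to 12 fell to day 4, and 7 to 32 rose and 4 to 15 fell from day 4 to day 5. The day 4 mean lay between the others for 123 of the 125 and 269 of the 270 introns, and for 62.6% of all.

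Called introns and their genes changed in the same direction wherever both were called, but most host genes were not called. For introns inside a single tested gene, 113 rose, in 91 genes. The host gene rose for 47 of these introns, fell for none, and was not called for 66, and the medians were 1.15 for the introns and 0.85 for the genes. For 238 introns that fell, in 149 genes, the host fell for 68, rose for none, and was not called for 170, with medians of −1.13 and −0.76. The difference between intron and gene was within 0.5 for 59 of the 113 and for 143 of the 238, compared with 17852 of all 20330 such introns. It was over 1 for 22 of the 113 (45 of all) and under −1 for 12 of the 238 (72 of all). FADS2 had 5 of 6 tested introns that rose and FASN, fatty acid synthase, 5 of 8. Among introns that fell, RUBCNL had 13 of 14, ITGA4, the integrin subunit α4, 6 of 10, and AIG1, MS4A3, and PLAC8 5 of 5 each. These hosts were named for their number of called introns after the values were seen.

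**Figure D3:**
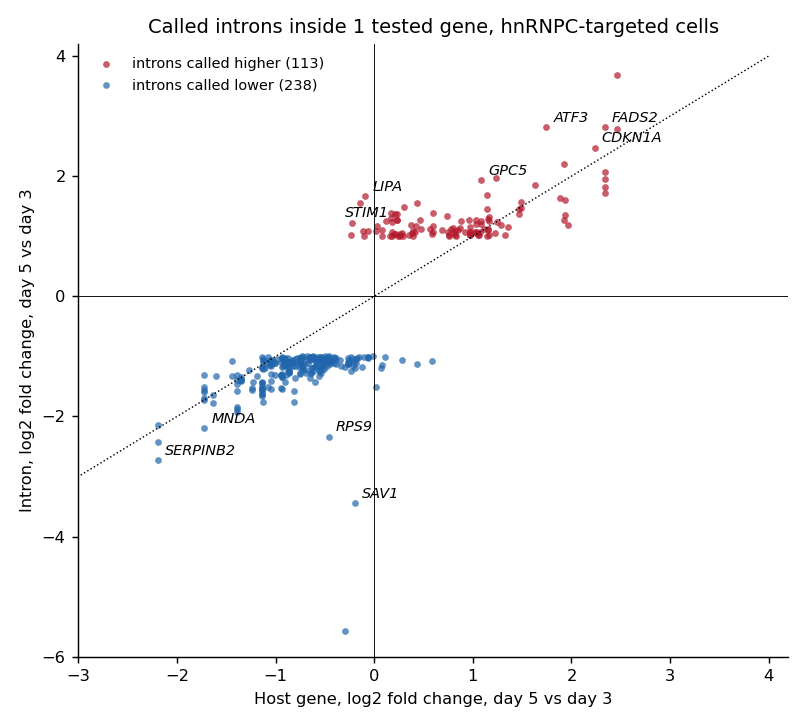
Log2 fold change from day 3 to day 5 of called introns inside a single tested gene (vertical) against the change of the host gene (horizontal), in hnRNPC-targeted cells. The 113 introns that rose and the 238 that fell mostly lie near or beyond the change of their gene, and the hosts of those that rose include none that fell.

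The single introns with the largest increases lay in genes of the groups above. The intron of ATF3 at chr1:212782273-212788359 had 1.45, 1.05, and 0.998 CPM on day 3, 3.00, 2.26, and 3.23 CPM on day 4, and 9.08, 8.09, and 7.51 CPM on day 5 (2.82 ± 0.30, adjusted p = 1.17e-08, edgeR). An intron of FADS2 at chr11:61631259-61632623 went from 1.51, 1.74, and 2.33 to 14.6, 11, and 13.5 CPM (2.81 ± 0.25). The intron of CDKN1A at chr6:36646717-36650416 went from 1.65, 2.19, and 1.34 to 11.4, 8.23, and 9.22 CPM (2.48 ± 0.29). Introns of HELZ2, an interferon-inducible helicase, GPC5, a glypican, MMP2, a matrix metalloproteinase, and OAS1, a synthetase of 2′-5′ oligoadenylates, rose by 1.86 to 2.21. An intron of EPHB1, an ephrin receptor, rose by 1.68 ± 0.25 with 7.05, 8.28, and 17.2 CPM on day 5, so replicate 3 was high. The intron of LIPA, lysosomal acid lipase, that rose by 1.66 ± 0.34 overlaps IFIT1, and without a stated strand in counting its reads cannot be told apart from those of IFIT1. The gene LIPA itself was at −0.09. The intron of IFI44 at chr1:79116338-79119927 had 2 counts in all on day 3 and 33 on day 5, a ratio of 15.3 with a 95% counting interval of 3.92 to 132. It changed by 11.6 in ADAR+hnRNPC-targeted cells, and the filter over all 48 libraries let it pass despite these low counts.

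Among introns that fell with no overlap between the days, SAV1 at chr14:51111733-51131896 had the largest change. Its levels were 31.7, 20.6, and 107 CPM on day 3 and 4.46, 4.96, and 5.25 CPM on day 5 (−3.44 ± 0.84), and without replicate 3 of day 3 the change was −2.42. SAV1 is a scaffold of the Hippo pathway. The other of its 2 tested introns changed by 2.55 and was not called, and the gene was at −0.20. Introns of SERPINB2 (−2.73 ± 0.33), MNDA (−2.20 ± 0.27), and MS4A3, a myeloid membrane protein (−1.92 ± 0.31), fell with their genes. An intron of RPS9, a ribosomal protein, was at −2.34 ± 0.87 (adjusted p = 0.0495) and was not called when any of 5 of the 6 libraries was left out. The change differed from that in CTRL cells for 278 introns in the positive and 352 in the negative direction (1.28 and 1.61%). With GFP-targeted in place of CTRL cells, these were 49 and 204. Without single libraries they were 182 to 344 and 202 to 633, where 182 is without replicate 1 of day 5 and 633 without replicate 3 of day 3 of hnRNPC-targeted cells, and 202 without replicate 3 of day 3 of CTRL cells. The largest differences were in introns of SAV1 (−4.35 ± 1.13), SNHG32 (−4.15 ± 1.09), a snoRNA host gene, DZIP1 (−2.34 ± 0.76), MMP2 (2.33 ± 0.47), and TCIRG1 (2.25 ± 0.42), a subunit of the lysosomal proton pump. The DZIP1 difference was not called when any of 7 of the 12 libraries was left out. For SNHG32 it was CTRL cells that changed, from 0.0442 to 0.431 CPM on day 3 to 2.70 to 3.51 CPM on day 5.

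Introns that hnRNPC targeting had already raised on day 4 were then followed. On day 4, 778 introns were higher and 110 lower in hnRNPC-targeted than in CTRL cells (3.57 and 0.505%), as were 210 and 215 genes (1.59 and 1.63%). The contrast that chose these sets held only day 4 libraries. The libraries of days 3 and 5 entered the choice through the filter and the spread, which were estimated over all 48 libraries. From day 3 to day 5, 22 of the 778 introns rose and 2 fell (0.573 and 1.24% of all tested introns), with a median of 0.15, compared with −0.21 over all tested introns and 0.02 for the same introns in CTRL cells. The 2 that fell lie in MCM8 and ATL1 and were named after their values were seen. The intron of MCM8, a helicase, at chr20:5937876-5939173 had 8.82, 8.31, and 3.41 CPM on day 3 and 2.81, 3.33, and 2.73 CPM on day 5 (−1.21 ± 0.41), without overlap between the days. The intron of ATL1 at chr14:51089967-51094748 was high in single libraries, with 0.426, 0.663, and 48.3 CPM on day 3, 16.3, 23.6, and 0.395 CPM on day 4, and 0.384, 0.215, and 0.434 CPM on day 5, so replicate 3 sets the mean of day 3 behind its change of −5.58 ± 1.45. The median was 0.11 for 479 introns that were higher by 1 to 1.5 on day 4, 0.20 for 188 at 1.5 to 2, and 0.35 for 111 at 2 or more. It was 0.05 to 0.22 without single libraries. For the 649 host genes of the 778 introns the median was −0.06, and 9 rose and 3 fell (1.39 and 0.462%, compared with 2.5 and 1.08% of all genes). The 110 lower introns had a median of −0.62, and 23 fell. The genes continued further, with a median of 0.70 for the 210 that were higher (64 rose, 1 fell) and −0.38 for the 215 that were lower (4 rose, 23 fell), next to 0.06 and −0.11 in CTRL cells. In percent of each set, 30.5 rose and 0.476 fell among the higher genes, and 1.86 rose and 10.7 fell among the lower ones. The 4 lower genes that rose were FADS2, LSS, MGAT2, and LINC03040.

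Runs of uridine are where hnRNPC binds, and the longest run of T of 6 introns that were higher on day 4 and rose from day 3 to day 5 is shown here as a DNA window in the direction of transcription. These 6 were picked from the 22 such introns. Of 17 that lie inside a single tested gene, 14 had a run of at least 9 T (82.4%, compared with 90.6% of the day 4 set). Those of IFI44, TK1, and SLC2A9 had none. Capitals mark the run.

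ATF3: aaaaagaggcTTTTTTTTTTaagtgaaaga
CDKN1A: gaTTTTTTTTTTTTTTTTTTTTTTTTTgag
OSBPL8: agttaccTTTTTTTTTTTTTTTTaattttt
ITGB2: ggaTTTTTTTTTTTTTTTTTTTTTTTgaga
DGKD: caagTTTTTTTTTTTTTTTTTTTTTTccaa
STIM1: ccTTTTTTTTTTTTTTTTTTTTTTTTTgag

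In GRCh37 these windows lie at chr1:212787881-212787910, chr6:36649361-36649390, chr12:76848503-76848532, chr21:46312516-46312545, chr2:234269627-234269656, and chr11:4067288-4067317, in introns on the strand of the gene. The introns of ATF3 and CDKN1A rose together with their genes, by 1.75 and 2.23. In the other 4 introns, which were named for this contrast after their values were seen, the host gene moved by 0.12 to 0.23 and was not called. The intron of STIM1, the calcium sensor of the endoplasmic reticulum, had 13.6, 12.9, and 13.6 CPM on day 3, 22.5, 26.0, and 23.6 CPM on day 4, and 27.5, 31.9, and 34.6 CPM on day 5 (1.23 ± 0.15, adjusted p = 2.85e-07), while CTRL cells had 2.22 to 3.34 CPM on both days. That of OSBPL8, a lipid transfer protein, went from 4.73, 5.44, and 4.24 to 12.6, 11.9, and 12.9 CPM (1.37 ± 0.24), with 0.414 to 1.30 CPM in CTRL cells. That of ITGB2, the integrin subunit β2, went from 3.73, 3.91, and 3.26 to 9.75, 8.90, and 7.58 CPM (1.27 ± 0.17). That of DGKD, a diacylglycerol kinase, went from 12.7, 12.6, and 8.85 to 24.4, 26.6, and 30.9 CPM (1.26 ± 0.22). In each of these introns all day 5 libraries were above all day 3 libraries. Days did not overlap, in either direction, for 8111 of all 21798 tested introns.

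Runs of at least 9 T on the strand of the gene were counted in the 20330 tested introns inside a single tested gene. Such a run was present in 66.8% of all of these introns, in 90.6% of those that were higher on day 4, in 48.7% of those that rose from day 3 to day 5, and in 66.0% of those that fell. Runs of at least 9 A, which are T runs on the other strand, were present in 59.5, 64.4, 36.3, and 62.6%. Per 10 kb, T runs numbered 3.57 in all, 4.88 in the day 4 set, 2.72 in introns that rose, and 2.89 in introns that fell. Length differs between the sets, and within introns of 1 to 5 kb the density was 3.67 in all, 7.16 in the day 4 set, 2.74 in introns that rose, and 3.34 in those that fell. Median GC content was 42.1% in all, 54.9% in introns that rose, and 40.2% in introns that fell. The introns that were higher than in CTRL cells on day 4 were thus richer in T runs than all tested introns, and the introns that rose between days were not. This is a description of letters in the reference and does not show binding.

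The editing-cluster–rich regions (ECRs) of the study are stretches of clustered A-to-I editing sites. Of 2528 tested ECRs, 16 rose and 47 fell from day 3 to day 5 (0.633 and 1.86%), with a median of −0.21. With the library size from ECRs themselves, 31 rose and 17 fell, and the median was −0.01. Without replicate 3 of day 3, 99 fell.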

How the data were processed

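RNA of 66 samples was sequenced in 2 studies, and 48 libraries of study 1 (16 groups of 3 replicates) were analyzed here. All values used are counts. The authors prepared stranded total RNA libraries depleted of ribosomal RNA, aligned reads to GRCh37 with STAR 2.5.4a, counted uniquely mapped reads on genes, introns, and ECRs with featureCounts, and deposited these counts without normalization or pooling. The strand setting of counting is not given in the sources used here. Groups were taken from the labels, and 0 columns were without a sample.

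Differential abundance was tested with edgeR 4.0.16 in R 4.3.3 (quasi-likelihood test, Benjamini-Hochberg adjustment over all features of a kind) with 1 coefficient per group over 48 libraries, where the study used voom. Library sizes were gene totals multiplied by TMM factors, also for introns and ECRs, and CPM are counts scaled to this size. The filter on low counts required a mean log2 CPM of 0.5 (13193 of 57820 genes), 1 (21798 of 197626 introns), or 4.5 (2528 of 2875 ECRs). A call needed a log2 fold change of 1 or more in either direction and an adjusted p up to 0.05. Of 57820 gene identifiers, 55538 had a symbol. On simulated data, 99 to 100% of genes and introns with a known log2 change of 1.5 or 2.5 in either direction were recovered. All features had the same simulated spread, so recovery near the threshold or with uneven replicates was not tested. SEs are the absolute log2 fold change divided by the root of F. The study describes independent experiments, while the labels give a number alone, so p-values measure the spread between these samples. Same-numbered hnRNPC and CTRL libraries deviated together on day 4 (r = 0.402, 0.254, and 0.156) and on day 5 (0.375, 0.309, and 0.396) but not on day 3 (0.470, −0.172, and 0.300), so the numbers were taken to pair samples within days 4 and 5 and not between days 3 and 5. No library was a copy of another. Intervals cover counting error only.

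Members and gene lists were chosen with earlier results of these data known. Genes named were HNRNPC, up to 4 called members per list and direction, the 12 largest increases and decreases among called genes with at least 5 CPM in a group and no overlap between days, the 5 largest differences from CTRL cells in each direction, and for introns the 10 largest increases and 5 largest decreases. Other features behind counts of 5 or fewer were named after their values were seen. T runs were read from GRCh37 with pysam 0.24.0. Alternatives tried were RLE factors, DESeq2 1.42.0, limma-voom (limma 3.58.1), no filter (at least 10 counts in all), a replicate block, the compared libraries alone, GFP-targeted in place of CTRL cells, library sizes from the features themselves, and leaving out each library. Editing tables and study 2 were not used here, and some members of the lists are not reported here.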

Additional observations from a re-analysis of the deposited data

Results flagged for a closer look

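For the items below, the change from day 3 to day 5 in hnRNPC-targeted cells differed from that in CTRL cells by edgeR's test of the difference (n = 3 per group and day). The cause was not tested. Among genes with a more positive change were RN7SL396P at 4.45, GPX1P1 at 3.13, CYP1B1 at 2.99, IL21R at 2.44, and F2RL3 at 2.28 on the log2 scale. In GFP-targeted cells, GPX1P1 changed by 0.23 where CTRL cells had −1.54, while IL21R changed by −1.56 next to −1.29. In ADAR+hnRNPC-targeted cells, F2RL3, CYP1B1, and IL21R changed by 3.13, 1.61, and 1.34, and GPX1P1 by −0.35.

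Genes with a more negative change were RNU2-48P at −2.71, RNU2-64P at −2.67, EEF1A1P38 at −2.57, TBC1D30 at −2.39, and RPS3AP20 at −2.27. These changed by −0.54 to 0.12 in ADAR+hnRNPC-targeted cells. TBC1D30 rose in CTRL cells by 2.54 and was at 2.08 in GFP-targeted and at 0.08 in ADAR+hnRNPC-targeted cells.

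Among introns, the difference was 2.33 for MMP2, −4.35 for SAV1, −4.15 for SNHG32, −2.34 for DZIP1, and 2.25 for TCIRG1. In ADAR+hnRNPC-targeted cells the MMP2 intron changed by 3.17 and the SAV1 intron by −0.15. The DZIP1 intron had 1.07 CPM in replicate 3 of day 4 of hnRNPC-targeted cells and 1.56 CPM in replicate 3 of day 3 of CTRL cells, compared with 3.14 CPM or more in all other libraries of these groups.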

How the results depend on the processing

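Of 212 alternative values for counts and medians of the comparisons (single libraries left out not included), 175 were within 1.5 times or 1 SD of the reported value and 37 moved. None of the directions of named genes and introns reversed, and 49 values of genes and 20 of introns lost their call. Of these, 28 of genes came under the 2-fold threshold, and 21 of genes and all 20 of introns stayed past it and missed the adjusted p. Without the filter on low counts, genes that rose and fell numbered 890 and 428 from day 3 to day 5, 70 and 37 to day 4, 203 and 47 from day 4 to day 5, 127 and 76 in CTRL cells, and 861 and 680 for the difference from CTRL cells. Introns then numbered 1352 and 1303, 62 and 24 from day 4 to day 5, 167 and 67 in CTRL cells, and 685 positive differences, and 26 ECRs rose. With GFP-targeted in place of CTRL cells, the difference was called for 217 and 121 genes and for 49 and 204 introns. With library sizes from the features themselves, 161 introns fell (158 of them among the 270 reported) and 183 rose (53.2% of calls instead of 31.6%), 10 introns rose from day 3 to day 4, and 31 ECRs rose and 17 fell. With limma-voom 22 genes fell from day 3 to day 4. With DESeq2, 8 introns rose and 12 fell from day 3 to day 4, and with only the libraries compared 0 and 0. In the latter fit 4 introns fell from day 4 to day 5 and 10 in CTRL cells. Same-numbered libraries of days 3 and 5 had correlations of 0.124, 0.031, and 0.201, so the numbers were not taken to pair these days. With the replicate block, 9 introns rose and 15 fell from day 3 to day 4, and within only the libraries compared 2 and 12, and the block moved no other count by over 1.5 times. Chosen after seeing the data, the block was also tried for hnRNPC against CTRL cells on day 4, where the numbers paired the samples. Over all 48 libraries it gave 780 and 112 introns (774 and 109 shared) and 211 and 216 genes. Within only the day 4 libraries compared it gave 775 and 127 introns (765 and 108 shared) and 212 and 222 genes.

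Leaving out single libraries gave 292 to 379 genes that rose and 113 to 165 that fell from day 3 to day 5, 13 to 46 and 12 to 16 to day 4, 54 to 107 and 3 to 14 from day 4 to day 5, 35 to 81 and 29 to 40 in CTRL cells, and 348 to 567 and 180 to 278 for the difference. The value of 35 is without replicate 3 of day 5 of CTRL cells. For introns the ranges were 95 to 149 and 172 to 640, 1 to 6 and 1 to 12 to day 4, 7 to 32 and 4 to 15 from day 4 to day 5, 40 to 71 and 8 to 21 in CTRL cells, and 182 to 344 and 202 to 633 for the difference. The 633 is without replicate 3 of day 3 of hnRNPC-targeted cells. For ECRs they were 15 to 19 and 33 to 99, for IFN-α–induced genes 40 to 44 and 2 to 5, for the median of day 4 introns 0.05 to 0.22, and for that of all introns −0.31 to −0.14. For hnRNPC against CTRL cells on day 4 they were 620 to 997 and 92 to 178 introns (178 without replicate 1 of hnRNPC-targeted cells) and 201 to 230 and 187 to 251 genes. Levels under 1 CPM, as for CCL2 and several ISGs, rest on few reads.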

Other observations

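Long noncoding RNAs were called more often in the direction of a decrease. Of 848 tested, 12 rose and 23 fell from day 3 to day 5 (1.42 and 2.71%, compared with 2.5 and 1.08% of all genes, median −0.10), and in CTRL cells 5 rose and 2 fell (0.590 and 0.236%, compared with 0.447 and 0.22%). Among abundant RNAs, named after their values were seen, RN7SL2, a 7SL RNA of the signal recognition particle, had 8836, 12872, and 15836 CPM on day 3 and 21458, 18276, and 17259 CPM on day 5 (0.60 ± 0.22, edgeR adjusted p = 0.0219), and the nuclear RNA MALAT1 had 1880, 1734, and 901 CPM and then 1152, 1179, and 1125 CPM (−0.39 ± 0.31). RN7SK was at 0.85 ± 0.12 in hnRNPC-targeted cells, at −0.05 ± 0.12 in CTRL cells, and at 0.23 ± 0.12 in ADAR+hnRNPC-targeted cells. None of these RNAs was past the 2-fold threshold.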
